A study of Canis lupus familiaris with 17 samples.

Results

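The 9 genes described here, MS4A1, PAX5, EBF1, BANK1, BLNK, TNFRSF13C, FCRLA, CD79B and VPREB3, are the genes by which B cells are usually recognised. They were taken by symbol from the gene lists of the deposited matrices, where each matched 1 gene in all 17 matrices, and they are 9 of the 20257 genes counted, of which 18090 had at least 1 UMI (a counted RNA molecule) in a cell that passed the filters. The study profiled circulating leukocytes of dogs by droplet single-cell RNA sequencing, with 1 library per dog. The 7 healthy dogs were middle-aged client-owned animals. The 10 dogs with osteosarcoma (OS), a malignant bone tumor, had their primary tumor in place and had received no treatment. Ages of the OS dogs spread wider to both sides of those of the healthy dogs, but farther to the older side. All 17 were of wild-type genotype and gave blood from which mononuclear cells were isolated over Ficoll, with red cells lysed. The groups thus differ in disease state by their labels, in age and in whatever else differs between pet dogs.

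B cells develop in the bone marrow under the transcription factors EBF1 and PAX5, which switch on the parts of the B cell receptor and hold the lineage to its fate. Mature B cells carry that receptor with its signalling chains CD79A and CD79B, pass its signal on through the adaptors BLNK and BANK1, and survive on the cytokine BAFF through TNFRSF13C, the BAFF receptor. On becoming antibody-secreting plasma cells they switch off much of this program, MS4A1 (the surface protein CD20, target of anti-lymphoma antibodies) and PAX5 included, and make J chain, the product of JCHAIN, which joins the subunits of polymeric IgM and IgA.

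The 17 libraries held 93013 cell barcodes, between 1332 and 7748 per dog, and between 7740230 and 56510134 UMIs per dog. After filtering, 80407 cells remained, of which 76355 were leukocytes. Any 2 libraries shared between 0 and 22 barcode sequences (median 8), at most 0.375% of the smaller library. Clusters formed without the 9 genes held 6822 B cells (3993 from healthy and 2829 from OS dogs, median 4014.5 UMIs per cell). The B cells of healthy dog 2 and OS dog 3 stood apart: ribosomal protein genes took 8.15% and 9.69% of their UMIs, against 14.1% to 19.0% (median 16.6%) in the other 15 dogs, and the B cell levels in which they were extreme are given with and without them.

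B cells held most of the leukocyte UMIs of 7 of the genes, and less than that of BLNK and BANK1. They held 96.6% of the leukocyte UMIs of VPREB3, 95.1% of those of PAX5, 91.7% of EBF1, 91.3% of CD79B, 88.1% of MS4A1 and 80.4% of TNFRSF13C. The share was 57.4% for FCRLA, 49.8% for BLNK and 28.8% for BANK1. Levels are given below as CPM, the count of a gene scaled to a fixed total of UMIs over all cells of a class in a dog, for dogs with at least 25 such cells. The classes compared leave out 3563 cells in clusters that could not be named. Also left out are platelet, red cell and mixed clusters, and cycling cells, which were too few per dog. These are counts of 3′ tags and are compared between classes and dogs, not between genes.

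PAX5, the commitment factor of the lineage, ranged over the 17 dogs from 448 to 951 CPM in B cells, with a median of 572 and a mean of 602 ± 133 CPM (SD, n = 17). Its next highest class was eosinophils and basophils at 4.56 CPM (n = 16), and every dog lay below its own B cells in every other class. EBF1, which acts before and beside PAX5, ranged from 334 to 922 CPM (median 469, mean 497 ± 129 CPM, n = 17), followed by 13.7 CPM in cells with at least 5 JCHAIN UMIs (n = 10). For both factors the B cell values lay above those of all other classes without overlap, while most of the classes below overlapped their neighbors. The highest dog for both was healthy dog 2. Without healthy dog 2 and OS dog 3 the means were 564 ± 78.2 CPM for PAX5 and 462 ± 64.9 CPM for EBF1 (n = 15).

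MS4A1 ranged from 191 to 363 CPM in B cells (median 252, mean 262 ± 58.3 CPM, n = 17). Cells with at least 5 JCHAIN UMIs came next at 65.8 CPM (n = 10), with no overlap, and T cells, myeloid cells and dendritic cells averaged under 5 CPM. TNFRSF13C ranged from 278 to 766 CPM (median 626, mean 601 ± 147 CPM, n = 17), with its lowest values of 278 and 315 CPM in healthy dog 2 and OS dog 3, and its mean without them was 641 ± 98.6 CPM. Conventional dendritic cells held 68.6 CPM of TNFRSF13C on average (n = 11) and overlapped the JCHAIN-rich cells, at 71.8 CPM. CD79B, the signalling chain beside CD79A, was counted at only 1032 UMIs over all filtered cells and stood at 30.7 ± 9.45 CPM in B cells (9.71 to 54.6 CPM, n = 17). VPREB3, a chaperone-like protein of early B cells, had the widest spread relative to its mean, from 18.1 to 165 CPM (median 60.3, mean 68.8 ± 43.6 CPM, n = 17), and its mean without healthy dog 2 and OS dog 3 was 75.3 ± 42.4 CPM (n = 15).

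BANK1, a scaffold that carries signalling kinases to the receptor, was the member shared with myeloid cells. Its B cell level was 1260 ± 299 CPM (899 to 2059 CPM, n = 17), and monocytes held 584 ± 183 CPM (373 to 1153 CPM, n = 17). The ranges overlapped, although each of the 17 dogs had less BANK1 in its monocytes than in its own B cells. The 3 monocyte clusters averaged 438, 775 and 1123 CPM, and the highest of them exceeded the same dog's B cells in 7 of 17 dogs. Eosinophils and basophils averaged 106 ± 61.0 CPM (n = 16). Outside the classes, a platelet cluster of 3302 cells (median 739 UMIs) held 405 CPM of BANK1 when pooled over dogs. Another platelet cluster, of 547 cells, held 19.6 CPM. Without healthy dog 2 and OS dog 3, which had the highest B cell values at 2059 and 1859 CPM, the B cell mean was 1167 ± 147 CPM.

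BLNK, the adaptor that links the kinase SYK to phospholipase C-γ2, and FCRLA, an intracellular relative of Fc receptors, were highest in plasmacytoid dendritic cells, the interferon-producing dendritic cells. In the 3 dogs with enough of these cells, BLNK stood at 1067 ± 151 CPM (901 to 1196 CPM) and FCRLA at 398 ± 92.9 CPM (291 to 459 CPM). B cells held 331 ± 68.3 CPM of BLNK (262 to 533 CPM) and 127 ± 24.2 CPM of FCRLA (79.7 to 162 CPM), with no overlap with the plasmacytoid cells for either gene. An unnamed leukocyte cluster of 264 cells, outside the classes, held 108 ± 65.0 CPM of FCRLA (37.5 to 166 CPM, 3 dogs), within reach of B cells. Its BLNK level was 54.8 CPM. Without healthy dog 2 and OS dog 3 the B cell means were 320 ± 47.2 CPM for BLNK and 133 ± 18.1 CPM for FCRLA (n = 15). Of the other genes, TNFRSF13C averaged 26.9 CPM in plasmacytoid cells and had a UMI in 90 of 251 of them (35.9%, median 14569 UMIs), against 6.40% of monocytes (median 11135.5 UMIs) and 2.40% of CD4 and naive T cells (median 5597 UMIs). Thinned to 2000 UMIs per cell, the mean shares over dogs were 9.41% in plasmacytoid cells (0 to 25%, 10 dogs), 1.14% in monocytes and 0.884% in CD4 and naive T cells. Conventional dendritic cells stood above plasmacytoid cells for TNFRSF13C, with a mean thinned share of 10.6% (16 dogs) and a mean level of 68.6 CPM. MS4A1, EBF1, CD79B and VPREB3 had a UMI in 0 of 251, which allows a share of cells with a UMI of up to 1.20% (counting error only) and does not limit the share that expresses the gene. BLNK also stood at 13.1 ± 6.69 CPM in CD4 and naive T cells (n = 17), where it differed between clusters, from 0.837 CPM to 36.5 ± 13.9 CPM.

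**Figure D1:**
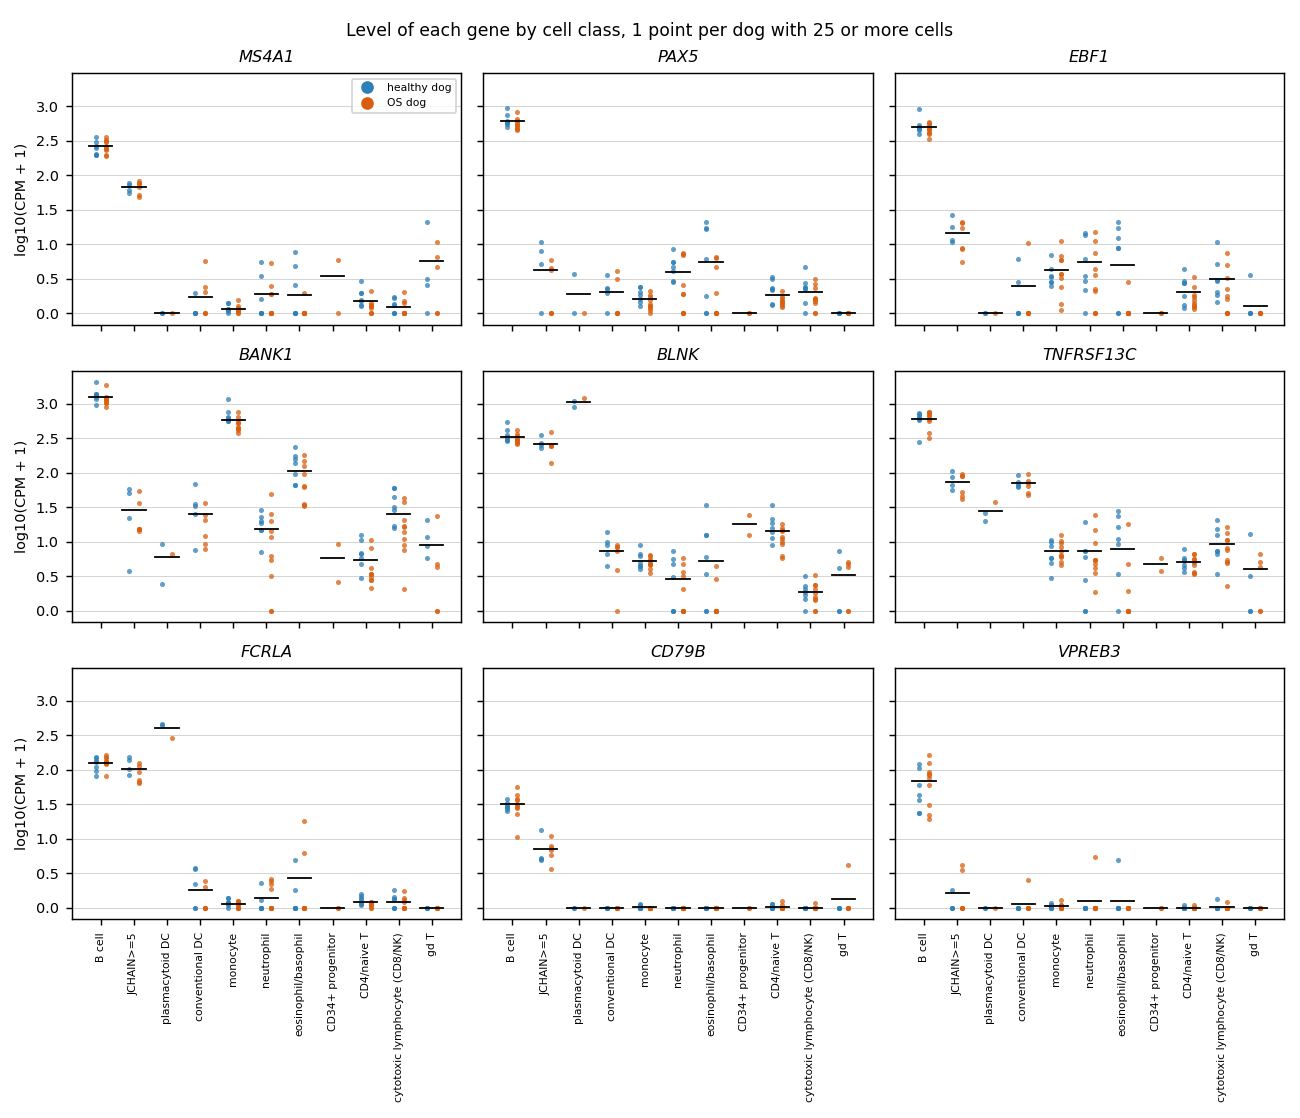
Level of each of the 9 genes by cell class on a log10(CPM + 1) axis, 1 point per dog with at least 25 cells of the class, colored by healthy or OS, with a bar at the class mean. B cells are the top class for 7 genes, with BANK1 also at 584 CPM in monocytes, while BLNK and FCRLA are highest in plasmacytoid dendritic cells at 1067 and 398 CPM.

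To compare single cells of unequal depth, each cell was thinned at random to 2000 UMIs, which left out 298 of 6822 B cells as too shallow. The mean share of B cells with a UMI over 17 dogs was then 83.7% for BANK1, 65.4% for TNFRSF13C, 61.2% for PAX5, 53.1% for EBF1, 45.3% for BLNK, 36.6% for MS4A1, 21.1% for FCRLA, 8.33% for VPREB3 and 6.21% for CD79B. In CD4 and naive T cells, which should lack the program, the same shares were 2.36% for BLNK and at most 0.956% for the others. Without thinning, 55.8% of B cells (median 4012 UMIs) and 0.273% of CD4 and naive T cells (median 5597 UMIs) had an MS4A1 UMI, and the shares for PAX5 were 80.7% and 0.482%. A share of cells with a UMI is not the share that expresses a gene.

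Most B cells showed several of the genes at once. Of 6524 thinned B cells, 30.3% had UMIs of 4 of the 9 genes, 25.3% of 3 and 20.1% of 5, and 0.199% had none. The mean share with 3 or more was 84.5% over dogs. By contrast 95.2% of CD4 and naive T cells had none, and 58.2% of monocytes had a UMI of exactly 1 of the genes. Of plasmacytoid cells, 45.8% had exactly 1 and 41.4% exactly 2.

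Within B cells the genes were seen together about as often as their separate shares give. Over the 36 pairs, the number of cells with both genes divided by the number that independence would give within each dog had a median of 1.01, and 21 pairs lay above 1. Pairs with VPREB3, FCRLA and MS4A1 stood highest. FCRLA and VPREB3 were found together in 145 cells against 109 (ratio 1.33), with a mean over dogs of 1.33 ± 0.525 and 9 of 11 dogs above 1. The ratio was 1.24 for MS4A1 with VPREB3 (10 of 12 dogs above 1) and 1.15 for MS4A1 with FCRLA (12 of 16 dogs). The lowest pair also held VPREB3: with CD79B it was found in 28 cells against 31.7 (0.883), and with BANK1 in 378 against 428 (0.883). The ratio of BLNK with TNFRSF13C (0.962) was above 1 in 2 of 17 dogs. PAX5 and EBF1, the 2 factors, gave 1.04. In sparse counts such ratios are descriptions, and cells of a dog share their library.

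**Figure D2:**
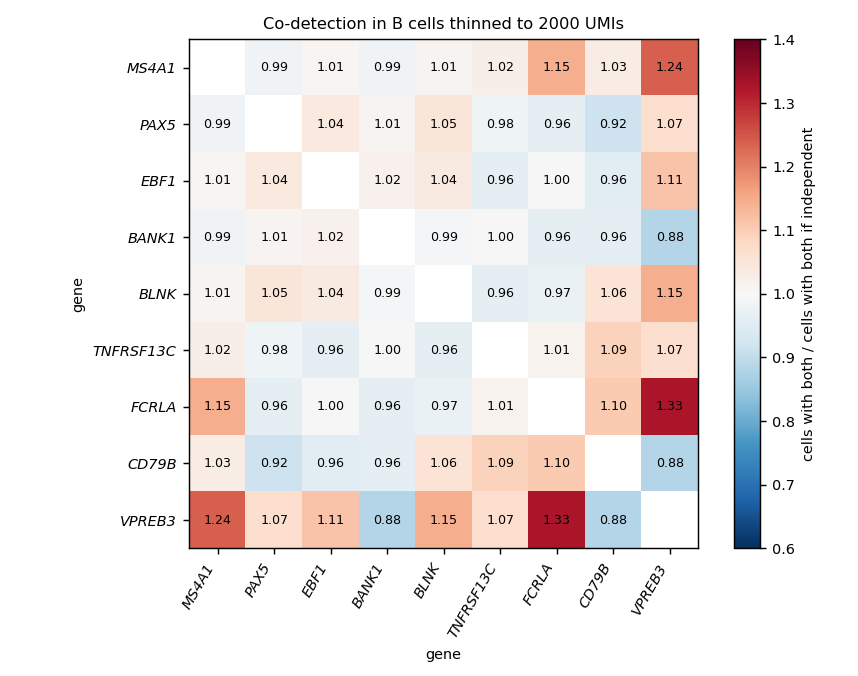
Co-detection of the 9 genes in B cells thinned to 2000 UMIs: each square gives, for the genes on the axes, the number of cells with both divided by the number expected if the 2 were independent within each dog. Values lie near 1 for most pairs and reach 1.33 for FCRLA with VPREB3.

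The 9 genes did not all vary in the same direction across the 8 clusters of B cells with enough cells for a value. Some moved alike: PAX5, EBF1 and BLNK shared a direction in most clusters, as did MS4A1 and FCRLA. The remaining cluster, of 31 cells, had no dog with 10 cells and is not read here. Clusters were formed without them, but on other genes of the same cells, so the following differences are descriptions without a test. Each is the mean over dogs of the log2 ratio of a cluster's level to that of the same dog's other B cells, for dogs with at least 10 cells in the cluster. In the immature B-like cluster (566 cells), whose leading genes include SOX4 and MYB, VPREB3 was higher by 3.03 on this scale (13 of 14 dogs), at 296 ± 151 CPM. BLNK, PAX5 and EBF1 were also higher there, by 0.76, 0.63 and 0.56, each in 14 of 14 dogs. BANK1 was lower in all 14, with a log2 ratio of -1.20 and a level of 602 ± 221 CPM. FCRLA was higher there in 9 of 14 dogs (0.17).

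In the class switched B-like cluster (674 cells) FCRLA was higher in 16 of 16 dogs (0.76) and PAX5 lower in all 16 (-0.87), with BLNK at -0.58. In the activated B-like cluster (486 cells) FCRLA stood at 0.53, MS4A1 at 0.41 and EBF1 at -0.68 relative to other B cells. An unnamed cluster of 430 cells led by genes such as CD80, a costimulatory ligand, had the lowest PAX5 (-1.47, lower in 15 of 15 dogs) and a BANK1 ratio of -1.10, while FCRLA stood at 0.66 and MS4A1 at 0.43.

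A second unnamed cluster, of 1382 cells, carried the highest levels of both factors and of BANK1. EBF1 (1.19), BANK1 (1.13) and PAX5 (0.91) were higher there in 17 of 17 dogs, while FCRLA (-1.43) was lower in all 17 and VPREB3 (-2.42), TNFRSF13C (-1.01) and MS4A1 (-0.70) had ratios below 0. Ribosomal protein genes took 8.78% of the UMIs of this cluster, against 15.3% to 21.0% in the other 8. It held 65.2% of the B cells of healthy dog 2 and 47.8% of those of OS dog 3, against 4.83% to 37.2% (median 15.6%) in the other 15 dogs. The part of ribosomal content in the levels of these cells was not tested.

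**Figure D3:**
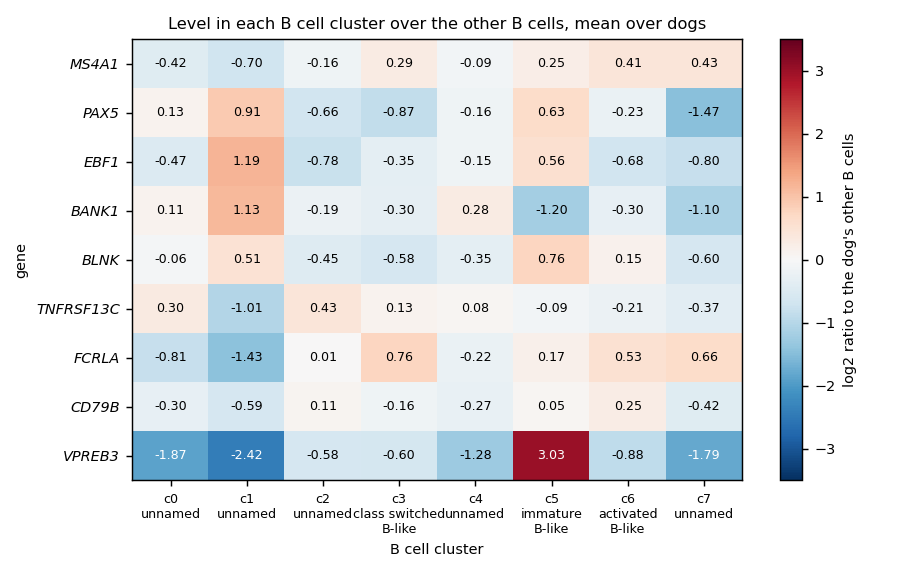
Mean over dogs of the log2 ratio of each gene's level in a B cell cluster to its level in the dog's other B cells, genes in rows and clusters in columns, for dogs with at least 10 cells in the cluster. VPREB3 is highest in the immature B-like cluster (3.03) and EBF1, BANK1 and PAX5 are highest in the unnamed cluster c1 (1.19, 1.13 and 0.91).

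Across dogs, the VPREB3 level of all B cells was set beside the share of B cells in the immature B-like cluster. That level includes the cells of the cluster, where VPREB3 was higher by 3.03 on the log2 scale. A positive relation is therefore partly built in, and the p-values here do not test it. The share ranged from 0.898% to 21.0% (median 6.62%) in healthy and from 2.11% to 21.6% (median 7.69%) in OS dogs. Pearson's r was 0.619 (permutation p = 0.00803) and Spearman's rho 0.544 (permutation p = 0.0253) over 17 dogs, the only such relation computed. Within groups r was 0.745 in the 7 healthy dogs (exact permutation p = 0.0383), where rho was 0.571 (exact permutation p = 0.2), and r was 0.541 in the 10 OS dogs (permutation p = 0.106), where rho was 0.442 (permutation p = 0.205). Without the 2 dogs farthest from the median share, an omission that also narrows the range of shares, r was 0.331 (permutation p = 0.229).

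Plasma cells were compared with B cells of the same dogs to ask which of the genes take a smaller part of the UMIs there. Levels are relative to total UMIs, and B cells held fewer UMIs per cell (median 4014.5) than JCHAIN-rich cells (median 15340). A lower level thus need not mean fewer molecules per cell. Cells with at least 5 JCHAIN UMIs numbered 580 (280 healthy, 300 OS, median 15340 UMIs), and 569 of them lay in the plasma cell cluster. The 10 dogs with at least 25 cells on both sides, 4 healthy and 6 OS, gave 512 such cells and 4130 B cells without JCHAIN. Summed counts were tested with edgeR's quasi-likelihood test with the dog as a block, and a gene was called at a Benjamini-Hochberg adjusted p below 0.01 and a log2 fold change past 0.58 in either direction. Of the 9 genes, 7 were called lower, each in 10 of 10 dogs, beside 25.4% of all 11994 genes tested (43.9% called in either direction). VPREB3 is among the 7, and had too few UMIs in JCHAIN-rich cells for its call to be read as a result. The median change of the members, VPREB3 included, was -2.87 on the log2 scale, against -0.21 over all genes tested. Without VPREB3 the middle values were -2.87 (TNFRSF13C) and -2.03 (CD79B).

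PAX5 and VPREB3 were nearly absent from JCHAIN-rich cells. PAX5 lay between 416 and 651 CPM in the B cells of the 10 dogs and between 0 and 10.8 CPM in their JCHAIN-rich cells, where 26 UMIs were counted and 4 dogs had none. Its mean was 3.66 ± 3.78 against 514 ± 75.3 CPM, a log2 change of -7.01 ± 0.22 (SE; adjusted p = 4.0e-20). VPREB3 ranged from 20.3 to 152 CPM in B cells, and only 4 UMIs, in 3 dogs, were counted in JCHAIN-rich cells. With so few UMIs the fold change of PAX5 depends on the test's prior count, and none is given for VPREB3, which passed the filter on low counts through its B cells alone and so had to differ.

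BANK1 was at 30.9 ± 22.4 CPM in JCHAIN-rich cells against 1024 ± 141 CPM in B cells (-5.14 ± 0.20, adjusted p = 2.9e-18), and EBF1 at 15.5 ± 7.54 against 405 ± 60.8 CPM (-4.70 ± 0.14, adjusted p = 1.5e-20). TNFRSF13C stood at 82.1 ± 28.2 against 573 ± 98.1 CPM (-2.87 ± 0.14), CD79B at 6.83 ± 3.13 against 28.4 ± 4.89 CPM (-2.03 ± 0.20) and MS4A1 at 74.3 ± 12.4 against 239 ± 52.8 CPM (-1.63 ± 0.11), with adjusted p at or below 9.1e-10 for all 3. For each of the 7 genes the highest JCHAIN-rich value lay below the lowest B cell value.

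BLNK and FCRLA were not called. BLNK lay between 171 and 455 CPM in JCHAIN-rich cells and between 240 and 381 CPM in B cells, higher in 4 dogs and lower in 6 (0.02 ± 0.10, adjusted p = 0.907). FCRLA lay between 70.9 and 172 CPM against 74.2 to 135 CPM, higher in 5 dogs and lower in 5 (0.09 ± 0.12, adjusted p = 0.541). The ranges overlapped widely for both. These levels carry edgeR's TMM scaling. In plain CPM, where immunoglobulin counts enter the total in full, BLNK was lower than in B cells in 9 of 10 dogs (260 CPM) and FCRLA in 8 of 10 (101 CPM). Neither scale gives molecules per cell. Without thinning, 91.4% of JCHAIN-rich cells (median 15340 UMIs) had a BLNK UMI, against 65.5% of B cells (median 4012 UMIs). The shares with an FCRLA UMI were 62.1% and 36.3%.

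**Figure D4:**
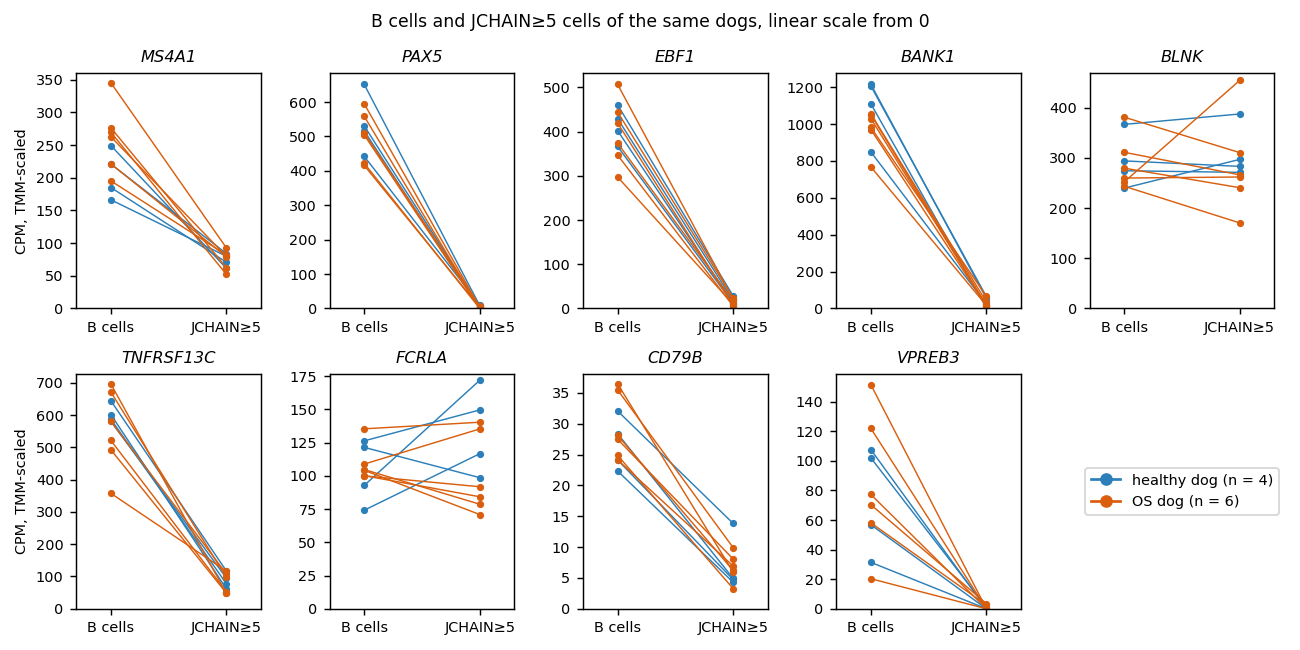
TMM-scaled CPM of each gene in the B cells and the JCHAIN-rich cells (at least 5 JCHAIN UMIs) of 10 dogs, with a line joining the values of a dog, on linear axes from 0. All 10 lines fall for 7 genes, while for BLNK 6 fall and 4 rise and for FCRLA 5 fall and 5 rise.

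The upper limits on UMIs and genes per cell removed 830 of the 1410 cells with at least 5 JCHAIN UMIs (58.9%). Without those limits the 7 genes stayed called lower, and BLNK was at -0.31 (adjusted p = 0.0017, edgeR), short of the fold threshold. B cells taken instead as cells with at least 2 CD79A UMIs and no JCHAIN UMI turned MS4A1 to 2.19, CD79B to 1.75 and TNFRSF13C to 0.72, but only 8.81% of the 62944 cells in that gate were in B cell clusters and only 6.25% of CD79A UMIs came from B cells.

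Single cells were compared at equal depth as well. After thinning, the mean share of JCHAIN-rich cells with an MS4A1 UMI was 9.72% over 14 dogs with at least 10 cells (0 to 23.1%). It was 36.6% in B cells and 0.102% in CD4 and naive T cells. The mean shares in JCHAIN-rich cells were 42.2% for BLNK (17.9% to 90.9%), 17.6% for FCRLA, 10.7% for TNFRSF13C, 5.47% for BANK1 and 2.97% or less for the other 4. Pooled over dogs, 35.1% of 575 thinned JCHAIN-rich cells had none of the 9 genes and 45.9% had 1. Without thinning, 49.8% of the 580 JCHAIN-rich cells (median 15340 UMIs) had an MS4A1 UMI, against 55.8% of B cells (median 4012 UMIs). The share per whole cell thus differed less than the share at equal depth. The 289 JCHAIN-rich cells with an MS4A1 UMI had 5.72 CPM of PAX5 and 1524 CPM of MZB1, a chaperone of antibody-secreting cells. The 291 without an MS4A1 UMI had 2.17 and 1539 CPM, while B cells without JCHAIN had 617 and 2.52 CPM. In the 730 B cells with 1 to 4 JCHAIN UMIs, PAX5 stood at 480 CPM, VPREB3 at 36.6 CPM and FCRLA at 169 CPM, against 617, 69.6 and 123 CPM in the 6083 without.

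The genes around the 9 changed in the same comparison as follows. These lists took part in the clustering that set the B cells, so their counts are descriptions. Of 24 genes of B cell receptor signalling, 22 were tested, 18 were called lower and 2 higher, with a median of -1.25, beside 25.4% of all genes called lower, 18.5% called higher and a median of -0.21. The co-receptor genes CD72 and CD22 were called lower and had 1 and 9 UMIs in JCHAIN-rich cells, too few for a fold change that does not rest on the prior count. They passed the filter on low counts through their B cells alone. Their calls, counted in the 18 and in the median, are not read as results. Also lower were the kinase genes PIK3CD (-3.98) and PRKCB (-3.27). The 2 higher genes were DAPP1 (1.72), an adaptor, and CD81 (1.32), a tetraspanin. BLK and PLCG2, at -0.07 and -0.41, were not called.

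Of 15 tested B cell transcription factors, 11 were called lower and 1 higher (median -2.23), against the same shares over all genes. BCL6 is among the 11, with 2 UMIs in JCHAIN-rich cells and none in 9 of 10 dogs. It passed the filter on low counts through its B cells alone, so its call is not read as a result. BACH2 (-7.39), a repressor of plasma cell genes, CIITA (-5.61), the activator of MHC class II, and IRF8 (-4.12) were lower, and the coactivator POU2AF1 was higher (1.87). Of 12 plasma cell and secretion genes, 11 were called higher (median 5.16), beside 18.5% of all genes. Among them were MZB1 (9.30), TXNDC5 (7.97) and PRDM1 (6.78), the factor that represses PAX5. SDC1 was not called, but had 3 UMIs in JCHAIN-rich cells and none in 8 of 10 dogs, too few to be read. In the BAFF and APRIL system, where TNFRSF13C was lower, the sister receptors TNFRSF17 (347 against 0.620 CPM) and TNFRSF13B (3.33) were higher, and TRAF3 (-2.49), NFKB2 (-2.32) and MAP3K14 (-1.71) were lower, 5 of 8 genes called in all, beside 43.9% of all genes called in either direction.

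Whether the change from B cells to JCHAIN-rich cells differed between OS and healthy dogs was tested as an interaction in edgeR. None of 11994 genes was called (0%), with 479 at an unadjusted p below 0.05. Among the 9 genes, FCRLA (-0.53 ± 0.22, unadjusted p = 0.0213) and PAX5 (-1.53 ± 0.67, unadjusted p = 0.0289) had a lower log2 change in OS than in healthy dogs, both with an adjusted p of 1. The PAX5 value rests on 26 UMIs in JCHAIN-rich cells, with none in 4 of the 10 dogs, and depends on the prior count. FCRLA was higher in JCHAIN-rich cells than in B cells in 3 of the 4 healthy dogs and in 2 of the 6 OS dogs.

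The main disease comparison asked whether B cells of OS dogs carried the genes at other levels. Cells with at least 1 MS4A1 UMI numbered 4414, of which 86.4% were in B cell clusters and 6.82% in the plasma cell cluster. Plasma cells hold more UMIs per cell (median 15022, against 4014.5 in B cells), so their part of the summed counts exceeds their share of cells. MZB1 ranged from 39.2 to 508 CPM in healthy and from 6.36 to 1102 CPM in OS dogs, against means of 3.01 and 3.05 CPM in B cell clusters. The levels in MS4A1-positive cells thus carry a plasma cell part that varied between dogs. Counts of MS4A1-positive cells were summed per dog and tested with edgeR, and 0 of 12476 genes (0%) were called, with 514 at an unadjusted p below 0.05 and 0 called by DESeq2. MS4A1 set the gate and is not read. None of the other 8 genes was called, and their median change was -0.12, against -0.01 over all genes.

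PAX5 in MS4A1-positive cells ranged from 297 to 716 CPM in healthy dogs (median 478) and from 218 to 665 CPM in OS dogs (median 401), with means of 465 ± 139 (n = 7) and 409 ± 117 CPM (n = 10). The groups overlapped over most of their range (log2 change OS over healthy -0.19 ± 0.19 SE). BANK1 was at 955 ± 289 against 844 ± 209 CPM (-0.18), and EBF1, BLNK, TNFRSF13C and FCRLA at -0.24, -0.18, -0.06 and -0.05. CD79B, at 22.7 ± 5.69 against 28.0 ± 11.8 CPM (0.34 ± 0.23), and VPREB3, at 56.0 ± 37.3 against 67.7 ± 41.4 CPM (0.34 ± 0.39), had positive values. Without healthy dog 2 and OS dog 3 the changes were -0.14 for PAX5, -0.079 for EBF1 and -0.12 for BANK1, and no gene was called. All adjusted p were 1.00 (edgeR, Benjamini-Hochberg).

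B cells taken from the clusters gave 0 of 12511 genes called (0%) as well, with 617 at an unadjusted p below 0.05 and 0 by DESeq2. MS4A1, free of the gate here, ranged from 198 to 316 CPM in healthy dogs (median 243) and from 200 to 400 CPM in OS dogs (median 251), with means of 248 ± 46.8 and 272 ± 66.3 CPM (log2 change 0.15). OS dogs 4, 6 and 10 lay above every healthy dog, and the other 7 lay within the healthy range. This order rests on the TMM scaling: in plain CPM healthy dog 2 stood at 362.5 CPM, above OS dogs 6 and 10 (308 and 327 CPM) and level with OS dog 4 (362.8 CPM). Without healthy dog 2 and OS dog 3 the log2 change was 0.24, still not called (edgeR, adjusted p = 0.979). BANK1 was at 1340 ± 254 against 1178 ± 161 CPM (-0.19), and VPREB3 at 58.7 ± 40.7 against 77.6 ± 48.6 CPM (0.47 ± 0.39 SE). Without healthy dog 2 and OS dog 3 these changes were -0.16 for BANK1 and 0.41 for VPREB3. The lists of receptor signalling, transcription factor, secretion and BAFF genes likewise had 0 calls in both comparisons.

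**Figure D5:**
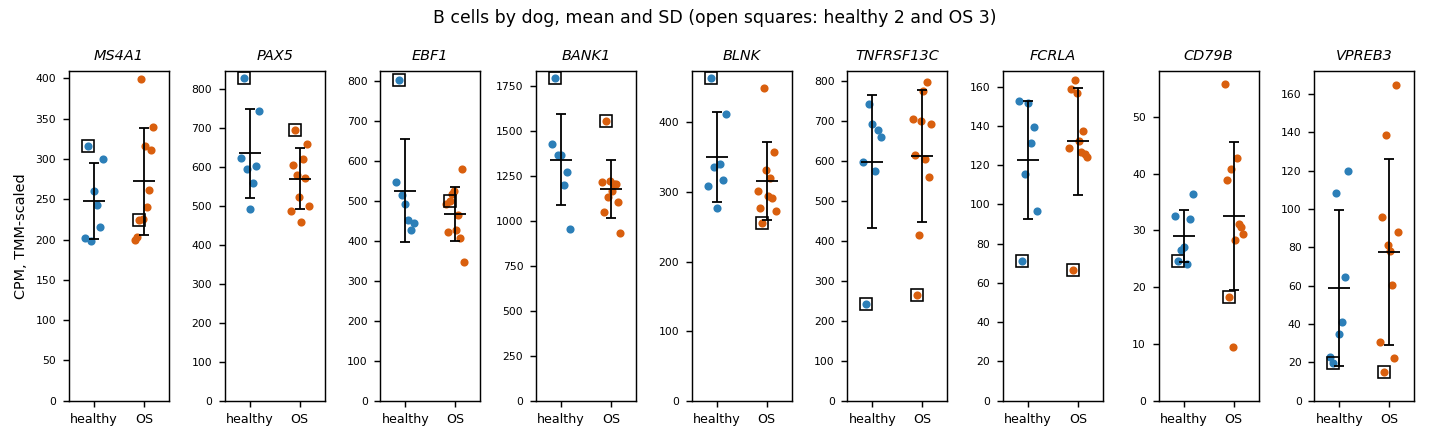
TMM-scaled CPM of the 9 genes in the B cells of each healthy (n = 7) and OS (n = 10) dog, with the mean and SD of each group, on linear axes from 0; open squares are healthy dog 2 and OS dog 3. The groups overlap for every gene.

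Cells with an MS4A1 UMI made up a smaller share of leukocytes in OS dogs. The share ranged from 5.55% to 10.5% (median 6.63%) in healthy and from 1.3% to 8.84% (median 4.31%) in OS dogs, and 8 of 10 OS dogs lay below the healthy median. Means were 7.35 ± 1.80% (n = 7) and 4.63 ± 2.38% (n = 10), a difference of -2.72 percentage points (exact two-sided Wilcoxon rank-sum p = 0.0330, where 0.000103 is the smallest p possible). Thinned cells gave -1.89 points (exact p = 0.0250), and cells with at least 2 MS4A1 UMIs gave -1.26 points (exact p = 0.109), which missed the 0.05 threshold. The ages of the OS dogs spread wider than those of the healthy dogs, to both sides but farther to the older side. The paper found naive, class switched and activated B cells reduced in OS dogs. Its total B cells, immature B cells and plasma cells did not differ by its threshold. Splitting OS dogs by age, it saw no B cell difference between younger and older ones, or between healthy and younger OS dogs. It could not tell age from cancer here, and held that age was likely part of the reduction. A share of leukocytes also moves with the other cells recovered. Monocytes made up 15.1% of the filtered cells of healthy and 21.2% of those of OS dogs, and neutrophils 8.73% and 6.09%. The paper reports that neutrophil recovery varied markedly between samples and can change cell proportions. The parts of age and of other cell classes in the MS4A1 share were not tested. Leaving out dogs 1 at a time, the exact p ranged from 0.00787 to 0.0727 and stayed below 0.05 in 7 of 17 runs. It was above 0.05 without healthy dogs 1, 2 or 3 or OS dogs 1, 2, 3, 5, 7, 9 or 10, with differences between -2.81 and -2.19 points, and without healthy dog 2 and OS dog 3 together it was 0.0879.

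Within MS4A1-positive cells thinned to 2000 UMIs, the share with a CD79B UMI was 4.73 ± 1.99% in healthy and 7.75 ± 2.67% in OS dogs, higher than the healthy median in 9 of 10. The difference of 3.02 points had an exact Wilcoxon p of 0.0250, and 0.20 after Benjamini-Hochberg adjustment over the 8 genes tested. The adjusted value was 0.0380 without healthy dog 7 (3.67 points) and 0.0420 without OS dog 8 (3.57 points), by the same exact test. These dogs had the highest healthy share (8.61%) and the lowest OS share (2.82%). CD79B was not called in any other of the 17 single-dog omissions. Without healthy dog 2 and OS dog 3 together the adjusted value was 0.454 by that test (2.82 points). The other 7 genes had an exact p of 0.270 or above. Too shallow to thin were 31 of 2419 healthy and 28 of 1995 OS cells. Fewer still entered these shares, 145 to 305 cells per healthy dog and 22 to 217 per OS dog. OS dog 3 gave 22 cells and OS dog 5 gave 31.

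Among the genes most like the 9 across 11 cell classes, by Pearson's r of the class means among 3346 genes, were SLCO5A1 (0.972), TEX9 (0.945), SNX29 (0.944) and BOC (0.941). Taken singly, VPREB3 and PAX5 were both closest to KLHL14 (0.996 and 0.990), CD79B to MS4A1 (0.978), and BLNK to FCRLA (0.942), while BANK1 was closest to HIF1A (0.879). These are likenesses over 11 points that share libraries and depths.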

How the data were processed

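Blood leukocytes of 7 healthy and 10 OS dogs were profiled with 10x Genomics 3′ chemistry. The authors aligned the reads to CanFam3.1 with Cell Ranger 7.0.0 and deposited UMI counts per gene and barcode. Whether these counts include intronic reads is not given in the sources used here. Cells were kept (84345) if they held over 200 but under 4500 genes, over 500 but under 20000 UMIs, and a mitochondrial share under 10%, and 3938 predicted doublets were removed with Scrublet at 0.8% per 1000 barcodes. Clustering (2000 variable genes, 30 components, 20 neighbors, Leiden resolution 1, seed 1) used scanpy 1.11.5, batch-corrected by dog, without the 9 genes, ribosomal and mitochondrial genes. Clusters were named from marker lists, with score thresholds set after seeing the clusters, and 195 B cells in clusters with platelet or T cell genes were left out. Counts were summed per dog (at least 25 cells; genes with at least 10 counts) and tested with edgeR 4.0.16 (TMM, quasi-likelihood, Benjamini-Hochberg), with DESeq2 1.42.0 as an alternative. Shares were compared by exact two-sided Wilcoxon rank-sum tests over dogs. In place of the planned CD79A gate, the listed alternative of cluster-based B cells without JCHAIN was used for the main comparison, since CD79A counted in every leukocyte class. The tests were first run on simulated data with known changes. Members and gene lists were chosen with earlier results of these data known. Named genes are the 9 members, the gate genes and up to 6 genes per list by size of change at a mean of at least 10 CPM, with single exceptions to direction named after their values were seen. Each dog is 1 library, and p-values measure the spread between dogs. Library and dog cannot be told apart. Alternatives were other limits, resolutions, scalings, filters, gates, thinning depths, an age covariate, a replicate block and omitted dogs. Values of 1 gene of the lists are not reported here.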

Additional observations from a re-analysis of the deposited data

Results flagged for a closer look

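In 12 of 56 groups of 4 to 10 dogs the highest or lowest dog stood far from its nearest neighbor by Dixon's criterion, where chance gives about 1 in 20. Of these values, 10 came from the B cells, MS4A1-positive cells or monocytes of healthy dog 2 and OS dog 3. In B cells, healthy dog 2 held 922 CPM of EBF1 (nearest dog 536), 2059 CPM of BANK1 (1396) and 278 CPM of TNFRSF13C (583), and OS dog 3 held 1859 CPM of BANK1 (1260) and 79.7 CPM of FCRLA (120). In MS4A1-positive cells, healthy dog 2 held 700.0 CPM of EBF1 (435) and 221 CPM of TNFRSF13C (494), and OS dog 3 held 1346 CPM of BANK1 (975) and 62.3 CPM of FCRLA (115). BANK1 stood apart in the monocytes of healthy dog 2 too, at 1153 CPM (749). The MS4A1-positive and B cell values share most of their cells. In JCHAIN-rich cells, healthy dog 7 held 12.3 CPM of CD79B (4.23) and healthy dog 3 held 0.845 CPM of VPREB3, with the other healthy dogs at 0. Both rest on few counts, as the JCHAIN-rich cells of all 10 dogs held 44 UMIs of CD79B and 4 of VPREB3. With the others at 0, any VPREB3 value above 0 meets the criterion, so its flag carries no information.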

How the results depend on the processing

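In the comparison of JCHAIN-rich cells with B cells, the 7 genes called lower kept direction and call under every alternative except B cells taken by CD79A, which turned MS4A1 (2.19), TNFRSF13C (0.72) and CD79B (1.75) and put BLNK (3.05) and FCRLA (3.13) past the threshold. The 2 uncalled genes changed sign. BLNK was -0.31 without upper limits on UMIs or genes (adjusted p = 0.0017, edgeR, short of the fold threshold) and -0.055 with a minimum of 10 cells, and it ranged from -0.085 to 0.12 without single dogs, below 0 without healthy replicate 4 or OS replicate 8. FCRLA ranged from -0.024 to 0.19 without single dogs, below 0 without healthy replicate 3. CD79A-gated B cells also moved the median co-detection ratio to 7.60, a gate with 8.81% of its cells in B cell clusters. Without a filter on low counts 16 genes passed the interaction test. Between OS and healthy dogs, the replicate numbers did not pair the samples: deviations of 7 same-numbered pairs correlated between -0.34 and 0.31, and no dog correlated best with its own number. A replicate block gave 2 genes called in MS4A1-positive cells against 0. Signs turned only for uncalled values near 0. TNFRSF13C in MS4A1-positive cells was 0.082 at 2 or more MS4A1 UMIs and 0.022 within B cell clusters, and ranged from -0.17 to 0.026 without single dogs. FCRLA there was 0.023 within B cell clusters and ranged from -0.15 to 0.020 without single dogs. TNFRSF13C in B cell clusters was -0.028 with the replicate block and -0.016 without healthy 2 and OS 3 together, and ranged from -0.095 to 0.12 without single dogs. The difference in the share of MS4A1-positive cells with FCRLA was -1.44 points when thinned to 1000 UMIs and -1.02 to 1.29 points without single dogs, and that with BANK1 was -3.40 to 0.131 points without single dogs. Leaving out single dogs gave 0 to 1 adjusted calls for these shares, with CD79B called without healthy replicate 7 or OS replicate 8. The MS4A1 share difference was -1.26 points at 2 or more UMIs (exact p = 0.109), -2.42 without healthy 2 and OS 3, and -3.19 to -2.19 without single dogs. The causes were not tested. The other 137 summary values and 767 single-gene values kept direction and call. Alternatives chosen after seeing the data were the CD79A replacement, MS4A1-gated B cells, the immature cluster, the paired omission of 2 dogs and single-dog omissions in JCHAIN-rich cells.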

Other observations

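Leaving the immature B-like cluster out of the B cells lowered the co-detection ratios of VPREB3 with BLNK from 1.15 to 0.970, with EBF1 from 1.11 to 0.965 and with PAX5 to 0.937, while its ratios with FCRLA (1.19) and MS4A1 (1.20) stayed above 1. The median over the 36 pairs was then 0.997, and without thinning it was 1.03, with 30 pairs above 1.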
